A study of Mus musculus with 5 samples.

Results

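The genes described here are those named Zfp and a number that were the nearest gene of at least 1 peak in the series, either of the Nr1d1 ChIP or of the IgG mock pull-down. They were picked by name from the authors' peak annotations, and 81 of the 12195 genes named there met the rule, so each of them has a peak by construction. Zfp genes encode zinc finger proteins. Most are C2H2 proteins, in which a row of fingers, each folded around a zinc ion by a pair of cysteines and a pair of histidines, reads DNA. Many carry a KRAB domain that recruits TRIM28 and, through it, histone methylation and heterochromatin, and they are best known for silencing transposons and for guarding imprints. Such genes arose by repeated duplication and often sit side by side in clusters. Others, such as Zfp423 and Zfp521, are single long genes that act in development.

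The series held 5 chromatin libraries from Th1 cells, the CD4 T cells that make interferon gamma. The cells came from wild-type C57BL/6 mice of 4 to 6 weeks. Naive CD4 T cells were stimulated through CD3 and CD28, given the Th1 cytokines IFNγ and IL-12 while IL-4 was blocked, and harvested after 3 to 4 days. The labels do not say whether the libraries came from separate mice or cultures. There were 3 libraries pulled down with the Nr1d1 antibody, 1 IgG mock and 1 input DNA library. Nr1d1, or REV-ERBα, is a nuclear receptor that represses transcription in the circadian clock. Its antibody is the label of all 5 libraries, mock and input included, so the groups rest on the titles. Peaks were deposited as 1 list per antibody, both over the same input, with a false discovery rate (FDR) and a length for each peak but no height and no value per library. Read depth was therefore unknown, the spread among the 3 ChIP libraries could not be seen, and no test between the antibodies was possible. The values describe these lists. Intervals are Wilson 95% intervals that cover the counting of peaks or genes only, and peaks at the same gene share a neighbourhood.

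A ChIP peak is called shared where 1 bp or more of it lay under an IgG peak and ChIP-specific otherwise, which gives the authors' own filtered list, and an IgG peak that met no ChIP peak is called IgG-only. The Zfp genes had 94 ChIP peaks, of which 66 were ChIP-specific and 28 were shared, and 81 IgG peaks, of which 52 were IgG-only. Shared peaks made up 29.8% (21.5 to 39.7) of their ChIP peaks, against 26.1% of all ChIP peaks. The Zfp genes accounted for 0.456% (0.359 to 0.580) of all annotated ChIP-specific peaks and 0.473% (0.381 to 0.588) of all annotated IgG peaks. The first share leaves out shared peaks and the second includes them. For like sets, the share was 0.480% (0.392 to 0.587) of all annotated ChIP peaks and 0.434% (0.331 to 0.568) of IgG-only peaks. By these counts the Zfp genes were hit about as often by the mock as by the Nr1d1 antibody.

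The DNA under peaks at Zfp promoters is shown first, because a promoter peak is the kind most directly tied to its gene. RefSeq promoter windows of 300 bases (GRCm38.p6, the build of the files), from 250 before to 50 after a start, were found for 65 of the 81 genes. Of the 27 promoter peaks at Zfp genes, 11 overlapped such a window. The windows below are written 5′ to 3′ along the gene, with the bases under the peak in capitals (the ChIP peak where the site is shared). The first 3 lie under ChIP-specific peaks, the next pair under shared peaks and the last 3 under IgG-only peaks.
Zfp523 (chr17:28177168-28177467, + strand, ChIP-specific): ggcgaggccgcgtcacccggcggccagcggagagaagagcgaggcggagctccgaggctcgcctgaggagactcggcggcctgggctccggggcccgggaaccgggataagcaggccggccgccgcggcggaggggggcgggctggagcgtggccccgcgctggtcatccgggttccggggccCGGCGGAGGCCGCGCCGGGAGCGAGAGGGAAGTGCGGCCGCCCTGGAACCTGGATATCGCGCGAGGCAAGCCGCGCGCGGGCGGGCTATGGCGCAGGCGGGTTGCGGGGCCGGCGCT
Zfp592 (chr7:80993434-80993733, + strand, ChIP-specific): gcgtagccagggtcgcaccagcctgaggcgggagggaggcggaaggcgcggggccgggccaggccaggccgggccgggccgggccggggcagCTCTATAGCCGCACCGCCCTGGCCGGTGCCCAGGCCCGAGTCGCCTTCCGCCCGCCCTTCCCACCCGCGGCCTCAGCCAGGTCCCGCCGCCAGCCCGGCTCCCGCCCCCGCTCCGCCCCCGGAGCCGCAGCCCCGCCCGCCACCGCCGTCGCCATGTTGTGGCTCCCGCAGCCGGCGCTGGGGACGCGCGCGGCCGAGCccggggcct
Zfp777 (chr6:48047745-48048044, - strand, ChIP-specific): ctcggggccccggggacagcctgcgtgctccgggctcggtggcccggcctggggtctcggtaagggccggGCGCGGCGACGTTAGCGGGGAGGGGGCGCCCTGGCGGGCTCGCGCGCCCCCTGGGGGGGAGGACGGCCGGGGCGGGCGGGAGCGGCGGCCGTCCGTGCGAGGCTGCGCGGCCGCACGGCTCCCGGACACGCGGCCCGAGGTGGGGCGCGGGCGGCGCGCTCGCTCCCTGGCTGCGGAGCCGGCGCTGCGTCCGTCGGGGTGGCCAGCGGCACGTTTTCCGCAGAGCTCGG
Zfp358 (chr8:3492888-3493187, + strand, shared): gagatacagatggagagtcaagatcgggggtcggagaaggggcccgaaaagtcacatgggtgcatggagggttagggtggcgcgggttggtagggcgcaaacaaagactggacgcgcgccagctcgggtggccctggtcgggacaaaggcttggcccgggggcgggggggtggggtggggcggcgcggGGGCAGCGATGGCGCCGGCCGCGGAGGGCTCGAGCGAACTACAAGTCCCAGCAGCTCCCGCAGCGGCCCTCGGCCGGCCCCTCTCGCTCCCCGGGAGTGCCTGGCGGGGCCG
Zfp746 (chr6:48086544-48086843, - strand, shared): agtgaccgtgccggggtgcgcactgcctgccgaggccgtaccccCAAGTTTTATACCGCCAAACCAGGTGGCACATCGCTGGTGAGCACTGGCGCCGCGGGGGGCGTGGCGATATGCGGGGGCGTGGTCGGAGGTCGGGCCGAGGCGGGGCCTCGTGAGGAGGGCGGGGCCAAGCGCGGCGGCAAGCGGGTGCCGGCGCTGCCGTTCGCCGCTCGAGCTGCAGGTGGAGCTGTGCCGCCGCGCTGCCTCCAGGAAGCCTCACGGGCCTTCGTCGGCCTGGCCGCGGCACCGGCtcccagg
Zfp558 (chr9:18473510-18473809, - strand, IgG-only): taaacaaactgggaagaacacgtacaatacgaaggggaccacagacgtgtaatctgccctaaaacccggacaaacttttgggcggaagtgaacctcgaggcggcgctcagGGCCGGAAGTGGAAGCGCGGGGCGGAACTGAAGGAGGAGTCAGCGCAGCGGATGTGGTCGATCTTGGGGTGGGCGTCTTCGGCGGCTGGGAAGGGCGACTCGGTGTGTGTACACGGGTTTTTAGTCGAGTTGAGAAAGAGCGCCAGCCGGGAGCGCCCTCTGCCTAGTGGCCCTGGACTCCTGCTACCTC
Zfp879 (chr11:50841503-50841802, - strand, IgG-only): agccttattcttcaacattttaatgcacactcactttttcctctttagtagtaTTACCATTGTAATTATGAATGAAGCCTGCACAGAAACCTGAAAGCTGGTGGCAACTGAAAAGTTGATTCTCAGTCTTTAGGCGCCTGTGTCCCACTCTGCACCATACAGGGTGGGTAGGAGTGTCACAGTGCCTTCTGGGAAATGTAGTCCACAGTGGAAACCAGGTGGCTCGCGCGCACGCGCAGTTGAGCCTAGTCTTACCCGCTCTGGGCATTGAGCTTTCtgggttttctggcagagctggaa
Zfp111 (chr7:24208100-24208399, - strand, IgG-only): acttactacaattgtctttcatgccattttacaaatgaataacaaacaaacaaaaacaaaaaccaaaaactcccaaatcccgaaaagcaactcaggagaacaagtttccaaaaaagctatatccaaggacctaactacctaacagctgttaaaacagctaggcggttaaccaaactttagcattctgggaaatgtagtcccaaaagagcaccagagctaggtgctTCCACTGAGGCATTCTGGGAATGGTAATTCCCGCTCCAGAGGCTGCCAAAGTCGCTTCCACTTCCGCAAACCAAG

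The windows under ChIP peaks were rich in G and C. Their GC content was 79.0% at Zfp523, 82.3% at both Zfp592 and Zfp777, 72.0% at Zfp358 and 74.3% at Zfp746, and they held 31 to 51 CpG dinucleotides each. In the windows under IgG-only peaks the GC content was 60.0% at Zfp558, 48.3% at Zfp879, 42.0% at Zfp111 and 69.0% at Zfp639. These values are for all 300 bases of a window. The peak covered 112 to 249 of them in the windows under ChIP peaks. It covered 190 at Zfp558, 224 at Zfp879, 75 at Zfp111 and 41 at Zfp639. Over all genes the windows under ChIP-specific, shared and IgG-only promoter peaks had median GC contents of 69.0%, 73.3% and 68.3%, against 52.7% over all 32851 windows. Against the median of their own kind, the 3 ChIP-specific windows lay above, Zfp358 below and Zfp746 above, and of the 4 IgG-only windows 3 lay below. Against the median of all windows, all 5 under ChIP peaks and 2 of the 4 under IgG-only peaks lay above. The sequence AGGTCA, the half-site that Nr1d1 and the ROR receptors recognise, was searched on both strands. It was in 0 of the 3 ChIP-specific, 0 of the 2 shared and 1 of the 4 IgG-only windows, and in 16.3% of all windows. The 1 match was at Zfp639, outside the stretch under the peak. Over all genes AGGTCA was in 8.28% of windows under ChIP-specific, 3.94% under shared and 14.0% under IgG-only promoter peaks. TAGGTCA, which contains it, was in none of these 9 windows and in 2.61% of all. RevDR2, the tandem repeat of the half-site that Nr1d1 dimers bind, was in none of the 9 and in 3 of all windows, and CACGTG, the E-box of the clock activators, was in none of the 9 and in 7.15% of all. GGGCGG, the GC box, was in all 5 windows under ChIP peaks, in 2 of the 4 under IgG-only peaks and in 35.7% of all windows, but over all genes it was in 78.3% of windows under ChIP-specific and 71.9% under IgG-only promoter peaks. In the stretch under the ChIP peak lay 6 of 6 GGGCGG matches at Zfp592, 3 of 3 at Zfp777, 2 of 3 at Zfp523, 1 of 1 at Zfp746 and 0 of 2 at Zfp358. Under the IgG-only peak lay 1 of 2 at Zfp558 and 0 of 2 at Zfp639.

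By gene, 26 of the 81 had a ChIP-specific and no IgG peak, 16 had both kinds, 17 had ChIP peaks that were all shared, and 22 had an IgG peak and no ChIP peak. A ChIP-specific and no IgG peak was thus found at 32.1% of the Zfp genes, with 32% over all genes named at a peak, and both kinds at 19.8%, with 34.4% over all. ChIP peaks that were all shared stood at 21.0%, with 14.8% over all, and an IgG peak without any ChIP peak at 27.2%, with 18.8% over all. Of the 4 classes, that with both kinds lay farthest from the share of all genes. A ChIP-specific peak was found at 42 Zfp genes (51.9%, 41.1 to 62.4), with 66.4% over all genes named at a peak, and an IgG peak at 55 (67.9%, 57.1 to 77.1), with 67.9% over all. The share with a ChIP-specific peak thus lay below that of all genes, and the share with any IgG peak was the same as that of all genes. These are unlike sets, because shared peaks count in the IgG share only. An IgG-only peak was found at 37 Zfp genes (45.7%, 35.3 to 56.5), with 6222 of 12195 over all. Any ChIP peak was found at 59 (72.8%, 62.3 to 81.3), with 9903 of 12195 over all. Both of these shares also lay below those of all genes.

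Most Zfp genes of the genome were at no peak. Of 367 protein-coding Zfp genes in RefSeq, 44 (12.0%, 9.05 to 15.7) were nearest to a ChIP-specific peak, against 17.5% of all protein-coding genes, and 56 (15.3%, 11.9 to 19.3) to an IgG peak, against 17% of all. A peak of any kind was nearest to 84 (22.9%, 18.9 to 27.5), against 26.6% of all. The authors' annotation lists 5 further Zfp genes under older names (Zfp267, Zfp970, Zfp975, Zfp976 and Zfp994), and these were looked up for this count although the name rule leaves them out. Zfp genes at a peak had a median length of 22197.5 bp and those at none 16790 bp, while all protein-coding genes at a peak had a median of 35607 bp. The part of gene length in these shares was not tested.

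Promoter peaks at Zfp genes numbered 12 in the ChIP and 15 in the IgG list, with 7 sites in both. Of the 66 ChIP-specific peaks, 5 were at promoters (7.58%, 3.28 to 16.5), with 5.52% over all genes. Of the 28 shared ChIP peaks, 7 were (25%, 12.7 to 43.4), with 8.78% over all, and of the 52 IgG-only peaks 8 were (15.4%, 8.01 to 27.5), with 3.98% over all. All IgG peaks together had 15 of 81 at promoters (18.5%, 11.6 to 28.3), with 5.46% over all. Put differently, 7 of the 12 ChIP promoter peaks at Zfp genes overlapped an IgG peak (58.3%, 32.0 to 80.7), against 36.0% of all ChIP promoter peaks, and the interval includes that value. Exons held 8 of the 66 ChIP-specific peaks (12.1%, 6.27 to 22.1) against 4.52% over all genes, and transcription termination sites (TTS) 5 (7.58%, 3.28 to 16.5) against 1.97%. Intergenic peaks made up 40.9% (29.9 to 53.0) of ChIP-specific peaks against 57.2%, while intronic peaks stood at 31.8% against 30.8%.

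**Figure D1:**
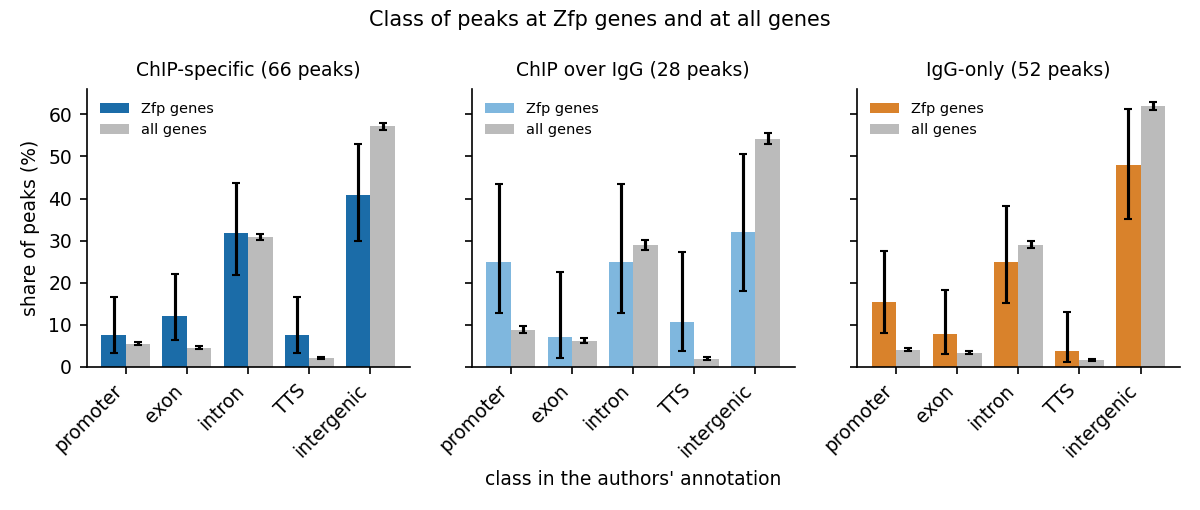
Share of peaks in each class of the authors' annotation (vertical axis, percent) at Zfp genes (coloured) and at all genes (grey), for ChIP-specific, shared and IgG-only peaks; bars are shares and whiskers Wilson 95% intervals. The coloured promoter bar is lowest for ChIP-specific peaks, at 7.58%, and highest for shared ones, at 25%.

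The 5 ChIP-specific promoter peaks lay at Zfp609, Zfp777, Zfp592, Zfp523 and Zfp783. Zfp609, a partner of cohesin loading factors and Integrator in neural progenitors, had the lowest FDR of them, 0.00503, over 325 bp, 173 bp upstream of its start (chromosome 9, 65827576 to 65827899). No IgG peak was assigned to any of the 5 genes. Zfp777 had a peak of 250 bp with an FDR of 0.0088, 56 bp upstream of the start (chromosome 6, 48047726 to 48047974). The peak of Zfp592, a member of a chromatin complex with ZMYND8, was 200 bp long with an FDR of 0.0179, 56 bp upstream (chromosome 7, 80993526 to 80993724). At Zfp523, the mouse counterpart of ZNF76 and a relative of the promoter-binding factor ZNF143, it was 125 bp long with an FDR of 0.0264 and lay 6 bp upstream (chromosome 17, 28177351 to 28177474). The highest FDR was at Zfp783, a gene that RefSeq lists as a long non-coding RNA, with a peak 100 bp long with an FDR of 0.0421 (chromosome 6, 47943251 to 47943349). ChIP-specific peaks over an exon within 1 kb of a start were found at Zfp536 (286 bp downstream, FDR 0.00749) and Zfp273 (484 bp downstream, FDR 0.0168).

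The 7 shared promoter peaks lay at Zfp281, Zfp358, Zfp362, Zfp607, Zfp704, Zfp740 and Zfp746. At Zfp281, a factor of pluripotent cells, the ChIP peak had an FDR of 0.0131 over 150 bp and the IgG peak 0.00155 over 200 bp, with the same centre 324 bp downstream of the start (chromosome 1, 136625151 to 136625299 for the ChIP). At Zfp740 the ChIP FDR was 0.00694 and the IgG FDR was printed as 0, and at Zfp358 they were 0.00597 and 0. Zfp362 had 0.00928 in the ChIP and 0.000281 in the IgG list. In these 4 the mock had the lower FDR. The order was the other way at Zfp607, with an FDR printed as 0 over 325 bp in the ChIP and 0.00361 over 200 bp in the IgG list, at Zfp704, with 0.00333 and 0.0064, and at Zfp746, which encodes the Parkin substrate PARIS, a repressor of Ppargc1a, with 0.0126 and 0.022. An FDR here depends on the depth of each pull-down, which is unknown, so the order within a pair is no measure of binding.

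Across all 28 shared sites at Zfp genes the ChIP peak was the longer in 20 and the IgG peak in 5, while the lower FDR belonged to the ChIP in 7 and to the IgG list in 14. The centres of the paired peaks were a median of 12.5 bp apart and at most 62.5 bp. For all shared ChIP peaks of the series, the ChIP peak was longer in 59.9% and the IgG peak had the lower FDR in 47.7%. The ChIP peaks of lowest FDR at Zfp genes were mostly shared: 10 of the 12 with an FDR printed as 0 overlapped an IgG peak, as did 90.8% of such peaks at all genes. Among them were long intergenic or intronic peaks at Zfp81 (450 bp in the ChIP, 375 bp in the IgG list), Zfp945 (425 and 375 bp) and Zfp821 (400 and 375 bp), and that at Zfp37 (400 and 375 bp), each with an FDR printed as 0 in both lists.

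**Figure D2:**
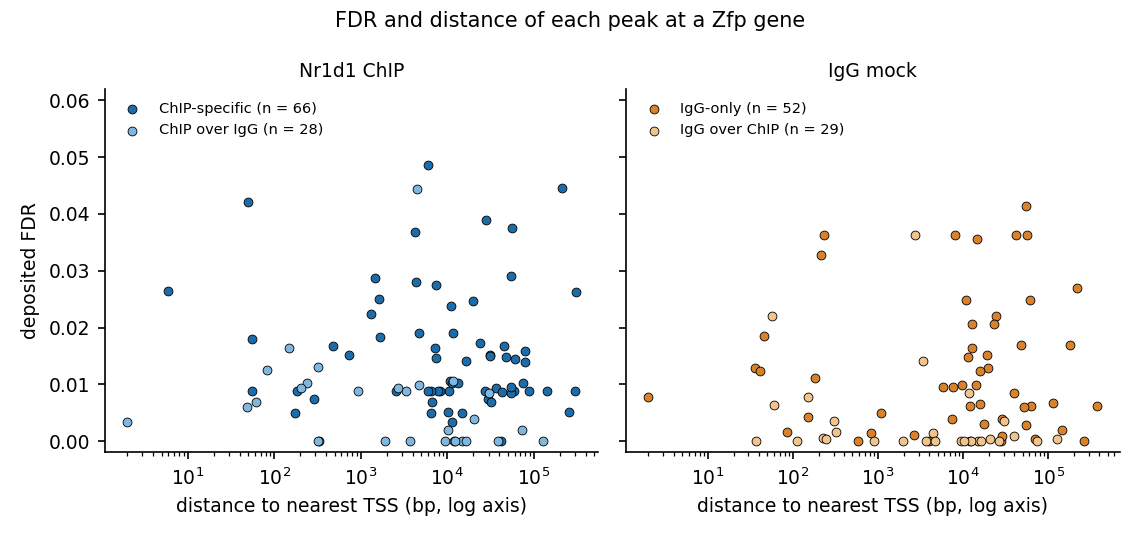
Deposited FDR (vertical axis) against the distance to the nearest transcription start (bp, log axis) for each peak at a Zfp gene, in the ChIP list on the left and the IgG list on the right; a point is 1 peak. Most shared peaks lie low on the FDR axis in both panels, with medians of 0.00495 in the ChIP and 0.000281 in the IgG list, against 0.0123 for ChIP-specific peaks.

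The other 2 ChIP peaks with an FDR printed as 0 were ChIP-specific and intronic. That of Zfp462, a chromatin regulator of early development, was 375 bp long and lay 41907 bp from a start (chromosome 4, 55053201 to 55053574), and that of Zfp2 was 350 bp long and lay 331 bp downstream of its start (chromosome 11, 50915626 to 50915974). Next by FDR came ChIP-specific peaks at Zfp266 (0.00333), Zfp609, Zfp655 and Zfp532 (0.00503 each), Zfp935 and Zfp521 (0.00515 each), Zfp423 (0.00683) and Zfp300 (0.00694). The peak of Zfp300, over an exon, was the longest ChIP-specific peak at a Zfp gene, at 575 bp (X, 21082076 to 21082649). The IgG list had peaks of low FDR at genes without any ChIP peak too. Zfp444 had a peak of 500 bp at a termination site (chromosome 7, 6183901 to 6184399) and Zfp648 an exonic peak of 425 bp (chromosome 1, 154204951 to 154205374), both with an FDR printed as 0.

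Peaks at Zfp genes lay nearer to starts than peaks at large, for either antibody. The median distance was 11362.5 bp for ChIP-specific peaks, with 30846 bp over all genes, 4058 bp for shared ChIP peaks, with 24942 bp over all, and 15022.5 bp for IgG-only peaks, with 38918.5 bp over all. Within 1 kb of a start lay 10 of the 66 ChIP-specific peaks (15.2%, with 9.50% over all) and 11 of the 52 IgG-only peaks (21.2%, with 6.72% over all). Over 100 kb away lay 5 ChIP-specific peaks (7.58%, with 22.2% over all), all at Zfp521, and 6 IgG-only peaks (11.5%, with 25.1% over all), at Zfp521 and Zfp622.

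The peaks were unevenly spread over the genes. Of the 81, 41 had a single peak over both lists, and the 10 genes with most peaks held 38.3% of the 175. In these counts a shared site enters once for each list. The leaders were 3 long developmental genes. Zfp521, which acts in blood and neural progenitors, had 9 ChIP peaks, all ChIP-specific, and 7 IgG peaks, all IgG-only. Zfp423, a regulator of the adipocyte lineage and of the cerebellum, had 8 ChIP peaks, of which 5 were ChIP-specific, and 4 IgG peaks. Zfp536, a repressor expressed in brain, had 6 ChIP peaks, of which 5 were ChIP-specific, and 2 IgG peaks. At Zfp521 the ChIP and IgG peaks did not overlap anywhere, with ChIP FDRs from 0.00515 to 0.0445 and IgG FDRs from 0 to 0.0364. Lack of overlap was the usual case, since 26.1% of all ChIP and 29.9% of all IgG peaks overlapped a peak of the other list. At Zfp423 the shared sites included an intronic one 920 bp from a start by the ChIP peak, with an FDR of 0.00887 there and 0 in the IgG list.

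Of 60 ChIP-specific peaks in the RefSeq bodies of Zfp genes, 20 were listed under another gene name, as were 15 of 62 IgG peaks. The assignment to the nearest start thus hid part of the peaks, most of all at Zfp536. Its RefSeq body of 456 kb held 14 ChIP-specific peaks, of which 7 were assigned to 4930505M18Rik and 3 to Gm28077, and 5 IgG peaks. That was 3.07 ChIP-specific and 1.10 IgG peaks per 100 kb. Among the 2429 protein-coding genes of at least 100 kb, with 0.605 ChIP-specific and 0.719 IgG peaks per 100 kb in the pool, 0.782% had a higher ChIP-specific density than Zfp536 and 19.7% a higher IgG density. The gene was singled out after these values had been seen, and the density is given as a rank among long genes with no test. Zfp423 had 1.67 ChIP-specific and 2.0 IgG peaks per 100 kb of its body, Zfp521 1.05 and 1.75, and Zfp462 1.44 and 2.88. Of the 20 Zfp genes of at least 100 kb, 10 had a ChIP-specific peak in the body, against 53.8% of all such genes. Zfp536 was thus the long Zfp gene whose ChIP-specific peaks most outnumbered its IgG peaks. With shared peaks counted on both sides, the bodies held 8 ChIP and 6 IgG peaks at Zfp423, 3 and 5 at Zfp521, 3 and 4 at Zfp462 and 15 and 5 at Zfp536.

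**Figure D3:**
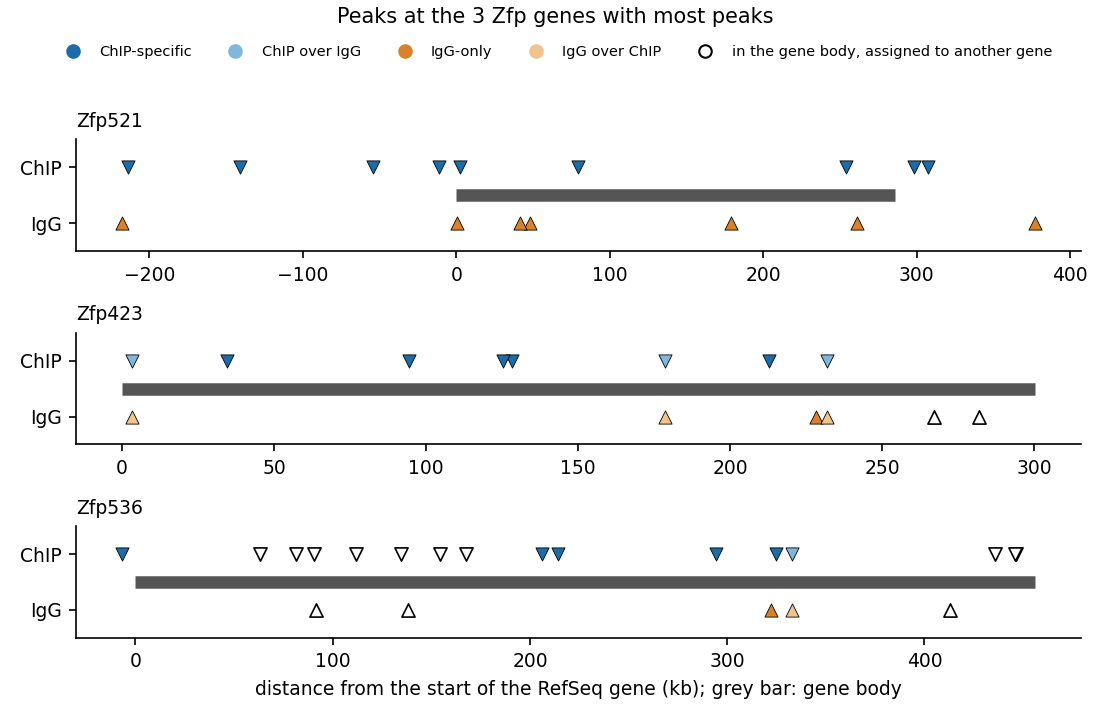
Position of each peak at Zfp521, Zfp423 and Zfp536 as the distance from the start of the RefSeq gene (horizontal axis, kb), with ChIP peaks above and IgG peaks below the grey gene body; filled symbols are peaks assigned to the gene and open symbols peaks in its body that were assigned to another gene. Zfp536 has 10 open ChIP symbols and 3 open IgG symbols, and Zfp423 has 2 open IgG symbols.

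In the clusters of duplicated Zfp genes, peaks were sparse. Counting runs of at least 3 Zfp genes with no gap over 1 Mb, RefSeq has 32 clusters with 239 of the 373 Zfp genes considered. A gene named at a peak was found for 32 of the 239 clustered genes (13.4%) and for 49 of the 134 genes outside clusters (36.6%). With the 5 genes under older names added, these became 36 (15.1%) and 50 (37.3%). Each peak names only 1 gene, however closely the genes are packed. The 32 named genes in clusters had a median length of 18454 bp and the 49 outside 28691 bp. The part of packing and length in these shares was not tested. The cluster spans held 4.60 ChIP and 3.83 IgG peaks per Mb, whichever gene these were assigned to, against 7.21 and 6.29 per Mb over the chromosomes up to the last peak. The ChIP density was below that of the cluster's own chromosome in 24 of 32 clusters and the IgG density in 27 of 32. Both antibodies thus had fewer called peaks in the clusters. How well reads could be mapped in these duplicated stretches was not examined.

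**Figure D4:**
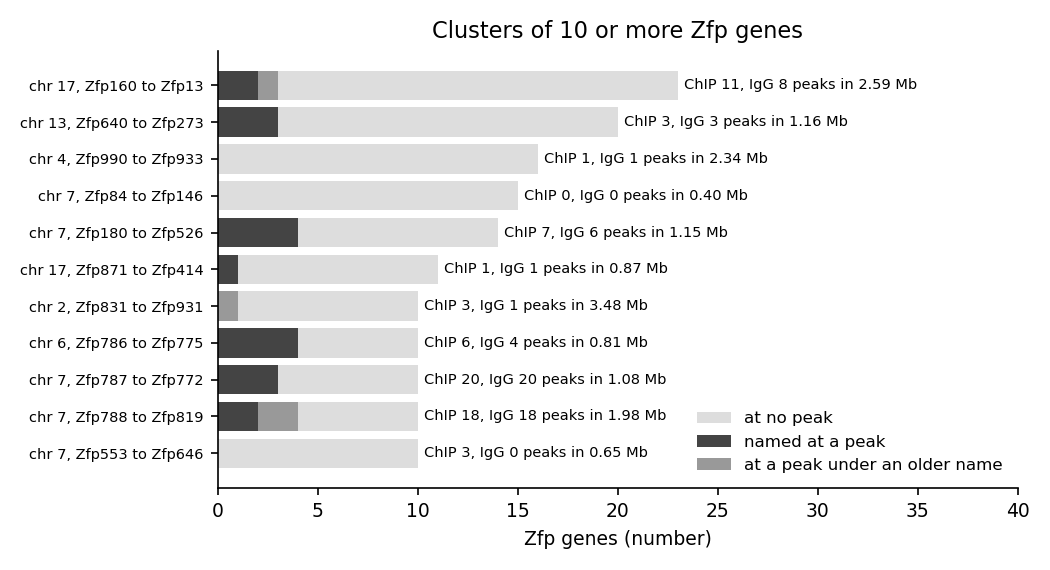
Number of Zfp genes (horizontal axis) in each cluster of 10 or more, split into those named at a peak (dark), those at a peak under an older name (mid grey) and those at none (light), with all ChIP and IgG peaks in the span written beside the bar. The cluster from Zfp84 to Zfp146 has no peak of either kind in 0.401 Mb, and that from Zfp787 to Zfp772 has 20 of each in 1.08 Mb.

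Of 11 clusters with 10 or more Zfp genes, 4 had none at a peak by the name rule, and 3 had none once older names were counted. The cluster on chromosome 4 (145510759 to 147849126) has 16 Zfp genes and held 1 ChIP and 1 IgG peak in 2.34 Mb, against 8.15 ChIP and 6.87 IgG peaks per Mb over its chromosome. On chromosome 7, the 15 genes from Zfp84 to Zfp146 (29768552 to 30169775), which include Zfp568, had 0 peaks of either list in 0.401 Mb. The cluster on distal chromosome 2, of 10 genes, held 3 ChIP peaks and 1 IgG peak in 3.48 Mb, and Zfp970, listed under its older name, was its only gene at a peak. The largest, on chromosome 17 (21008941 to 23599755), has 23 Zfp genes, of which Zfp945 and Zfp947, and Zfp994 under its older name, were at a peak. Zfp945 had 3 ChIP peaks, 2 of them ChIP-specific at FDRs of 0.0106 and 0.0239, and 2 IgG peaks, all in the intergenic stretch upstream of its start. In the cluster of 20 genes on chromosome 13, Zfp640, Zfp712 and Zfp273 each had 1 ChIP-specific and 0 IgG peaks. Whichever gene they were assigned to, its span held 3 ChIP peaks, 2 of them ChIP-specific, and 3 IgG peaks. The peak of Zfp640 lay outside the span.

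A cluster on chromosome 6 had the most ChIP peaks at promoters of the 11. Of its 10 Zfp genes (47815536 to 48621548), 4 were at a peak, and 3 of them, Zfp783, Zfp777 and Zfp746, had it at the promoter in the ChIP list. The promoter peaks of Zfp783 and Zfp777 were ChIP-specific, so 2 of the 5 ChIP-specific Zfp promoter peaks came from this cluster, while that of Zfp746 was shared. The fourth gene, Zfp398, had a shared intronic peak with an FDR printed as 0 in both lists. In the cluster of 14 genes on chromosome 7 from Zfp180 to Zfp526, the promoter peaks were IgG peaks, at Zfp114 (200 bp, FDR 0.00136) and Zfp111 (300 bp, FDR 0.0185). The Zfp787 to Zfp772 cluster on the same chromosome was dense in peaks of both kinds, 18.5 per Mb for each antibody, and 3 of its 10 Zfp genes were at a peak. None of the 3, Zfp787, Zfp444 and Zfp667, had a ChIP-specific peak. Of the 20 ChIP peaks in the span, 16 were ChIP-specific, all assigned to other genes.

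**Figure D5:**
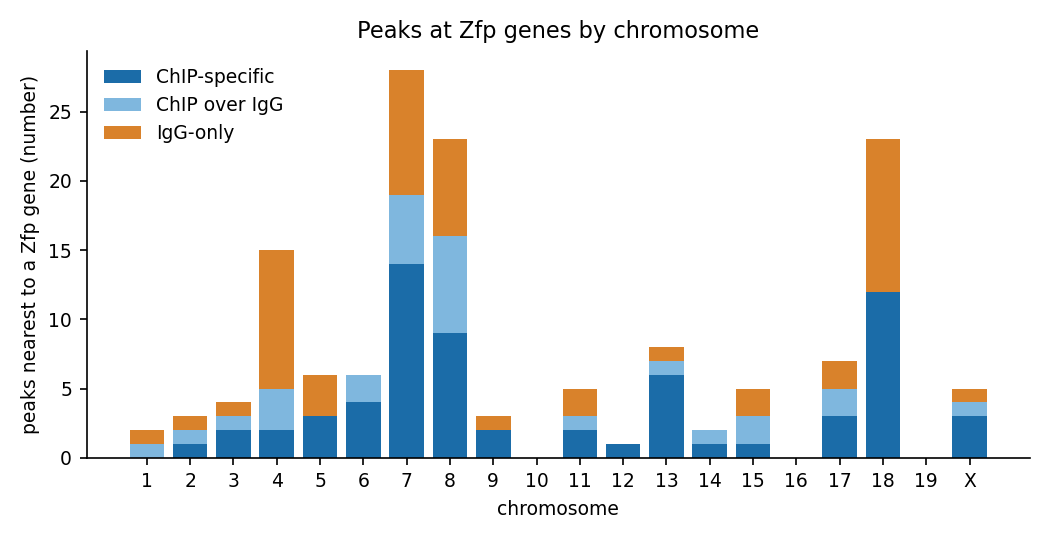
Number of peaks nearest to a Zfp gene (vertical axis) on each chromosome, stacked as ChIP-specific, shared and IgG-only. Chromosome 7 has the tallest bar, with 14 ChIP-specific, 5 shared and 9 IgG-only peaks, and on chromosome 18 most peaks belong to Zfp521.

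By chromosome, the ChIP-specific peaks were led by chromosome 7 with 14, chromosome 18 with 12 and chromosome 8 with 9. Chromosome 7 has 92 of the Zfp genes considered, and 17 of them were named at a peak. Chromosome 4 had 2 ChIP-specific, 3 shared and 10 IgG-only peaks at Zfp genes, where all its peaks were 967 ChIP-specific, 305 shared and 766 IgG-only. Its IgG-only peaks included 4 at Zfp37, 3 at Zfp352, a gene of the early embryo, and 2 at Zfp462. Chromosome 13 had 6 ChIP-specific, 1 shared and 1 IgG-only peak at Zfp genes, where all its peaks were 509, 204 and 388. These small counts, several from a single gene, were not tested. Chromosomes 10, 16 and 19 had no peak at a Zfp gene, and they hold 5, 5 and 2 Zfp genes.

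Zfp genes listed for roles in immune cells were at no peak. Of 8 such genes, among them Zfp36, which encodes the mRNA-destabilising protein tristetraprolin, and Zfp683, which encodes the tissue-resident lymphocyte factor Hobit, 0 were named in either list. Of 7 genes that silence transposons or guard imprints, among them Zfp57, Zfp445 and Zfp809, 0 were. Over all protein-coding genes 26.6% were nearest to a peak. In the pluripotency list of 5, Zfp281 had the shared promoter peak described above and Zfp42, the Rex1 gene of embryonic stem cells, had 2 intergenic ChIP-specific peaks (FDRs 0.0144 and 0.0088, 60834 and 27353 bp from the start) and 1 IgG peak (FDR 0.0364). Of 14 genes of development and neurons, 9 were at a peak, 5 with a ChIP-specific and 8 with an IgG peak, in a list of developmental genes drawn up by hand. Zfp608, Zfp507 and Zfp516 of this list were not among the 9 but had peaks in their bodies that were assigned to other genes. Those of Zfp608 and Zfp507 were ChIP-specific and that of Zfp516 was shared. Besides those described, Zfp703, Zfp407 and Zfp618 had IgG-only peaks and Zfp711, an X-linked gene of brain development, had a shared exonic peak centred 149 bp downstream of a start (FDR 0.0163 in the ChIP, 0.00779 in the IgG list). The shares of all protein-coding genes with a ChIP-specific and with an IgG peak were 17.5% and 17%. Among the 9 developmental genes at a peak, Zfp423, Zfp521, Zfp536, Zfp462, Zfp609, Zfp407 and Zfp618 are longer than 100 kb. Of all protein-coding genes of at least 100 kb, 53.8% had a ChIP-specific peak in the body. The part of gene length in the counts of this list was not tested.

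Of 20 genes of the corepressor machinery that KRAB zinc finger proteins use, 3 had a ChIP-specific peak (Hdac2, Atrx and Dnmt3a) and 3 an IgG peak (Trim28, Chd3 and Suv39h1), so 15% for each, near the shares of all protein-coding genes. Dnmt3a, a de novo DNA methyltransferase, had a ChIP-specific promoter peak 17 bp from a start (chromosome 12, 3806951 to 3807199, FDR 0.01). A second lay in an intron 840 bp from its own nearest start (FDR 0.00617). Atrx, a chromatin remodeller, had a peak of 100 bp 324 bp from a start (FDR 0.0207). Among zinc finger families of other names, 7 of 35 Zbtb genes (20.0%), 1 of 11 Zscan, 0 of 11 Zkscan, 7 of 14 Prdm (50%) and 3 of 17 Klf genes (17.6%) had a ChIP-specific peak, against 17.5% of all protein-coding genes. Those within 1 kb of a start were at Zbtb17, Prdm16, Prdm6, Klf11 and Klf16. An IgG peak was found at 5 of the 35 Zbtb, 2 of the 11 Zscan and 2 of the 11 Zkscan genes. It was found at 6 of the 14 Prdm and 5 of the 17 Klf genes, against 17% of all protein-coding genes. The Zfp genes of the genome, at 12.0%, lay below the Prdm and Zbtb families and above the Zkscan genes, and these differences were not tested.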

How the data were processed

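Chromatin was crosslinked with 1% formaldehyde for 30 minutes, sonicated and pulled down, per the labels' protocols. Reads were aligned with BWA to mm10 and peaks annotated with HOMER, per the submitters' processing notes. How peaks were called and libraries pooled is not given in the sources used here. Deposited were 3 peak lists and 3 annotations. Each peak has a q-value, deposited as an FDR printed to 6 decimals (all under 0.05), and a length in steps of 25 bp. The score in the authors' tables equals the length. The 2 ChIP peaks and 1 IgG peak without annotation were left out of shares by gene or class.

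No read counts or values per library were used. Overlaps, counts and intervals were computed in Python 3.11.15 with pandas 2.3.3, numpy 2.4.6 and scipy 1.17.1, and the overlap code was tested on simulated intervals. Gene positions, older symbols and promoter sequences came from RefSeq (GRCm38.p6): 80 of 81 genes matched by symbol and 1, Zfp607, by an older name. Named genes are those with a ChIP-specific promoter or exon peak within 1 kb of the start, a shared promoter peak, the 10 lowest FDRs of ChIP-specific and the 5 of IgG peaks, the 10 with most peaks, and the role lists; other names were chosen after their values were seen. The members and lists were chosen with earlier results of these data known.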

Additional observations from a re-analysis of the deposited data

How the results depend on the processing

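Of 54 alternative values, 41 stayed within the interval of the reported share or within 1.5 times the reported count or median. Those that moved further were these. With peaks of an FDR at or under 0.01, the genes numbered 37 in the ChIP and 20 in the ChIP-specific list, and the share of peaks at Zfp genes became 0.632% in the ChIP, 0.590% in the IgG and 0.689% in the ChIP-specific list. Within 10 kb of a start, 39, 34 and 24 genes remained with a peak in the ChIP, IgG and ChIP-specific lists. With distance under 1 kb in place of the promoter class, 21.3% of ChIP peaks counted as promoter peaks. With gaps of up to 2 Mb, 53.1% of the genes lay in clusters, against 39.5%. Without Zfp521, Zfp423 and Zfp536, a setting chosen after seeing the data, the share fell to 0.363% of ChIP and 0.325% of ChIP-specific peaks, and the median distance of ChIP peaks was 6624 bp. The share of ChIP peaks over IgG was 27.7% with an overlap of at least 50% of the ChIP peak (23.5% of all ChIP peaks), 30.9% with an IgG peak within 1 kb (28.3% of all) and 39.2% at an FDR at or under 0.01 in both lists (39.1% of all). No paired analysis was possible because the lists give no value per library, and for the same reason no library could be left out.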
